A study of Mus musculus with 6 samples.

Results

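The genes described are those of the mitochondrial ribosomal proteins, taken as every protein-coding row of the count table whose symbol starts with Mrpl or Mrps followed by a number. There were 77 of them among 21606 genes, 48 named for the large subunit (Mrpl) and 29 for the small subunit (Mrps). All 77 are nuclear genes on autosomes, with 0 on the X or Y chromosome, and 11 lay on chromosome 11.

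The mitochondrial ribosome sits in the matrix and translates the few messages of mitochondrial DNA (mtDNA), which encode core subunits of the respiratory chain and of the ATP synthase. Its small subunit is built on the 12S ribosomal RNA (mt-Rnr1) and reads the message, and its large subunit is built on the 16S RNA (mt-Rnr2) and joins the amino acids. Both RNAs are transcribed from mtDNA, whereas every protein is made in the cytosol and imported, so that a ribosome needs both genomes. Some of the proteins descend from the bacterial ribosome and others are found only in mitochondria. Blood stem and progenitor cells depend on mitochondrial translation when they proliferate and mature.

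RNA had been measured by BRB-seq, a bulk method that reads the 3' ends of transcripts from pooled, barcoded samples. The cells were bone marrow cells of C57BL/6 mice sorted for high aldehyde dehydrogenase activity, called ALDHbr, a fraction rich in progenitors. There were 3 libraries from male and 3 from female mice, all labelled WT and with no treatment named, and the comparison asks how the marrow cells of the sexes differ. The labels give no age, and do not say whether a replicate was an animal, a pool or a repeat of one preparation, so the p-values cover only the spread among these libraries, possibly technical. Totals ran from 679724 to 1475224 counts and averaged 799185 ± 105598 in male and 1320028 ± 141078 in female libraries (SD, n = 3 each), so that male values carry more counting error. Xist, the RNA of X inactivation, averaged 1.09 ± 1.89 CPM in male and 190 ± 30.5 CPM in female libraries (SD, n = 3 each). All 8 markers of progenitors and immature myeloid cells (Kit, Cd34, Flt3, Mpo, Elane, Prtn3, Ctsg and Myb) had counts, with summed levels of 13269 to 14263 CPM in male and 14857 to 15553 CPM in female libraries. Levels are CPM, counts relative to library size, with sizes scaled by the trimmed mean of M-values (TMM).

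Promoter sequence is shown for 5 genes, each with a match to one of the words given below. Promoters of mitochondrial ribosomal proteins are known to be bound by NRF1, by GABP of the ETS family and by YY1. Each line is the 90 bases before the start of the gene in RefSeq (GRCm38.p6), 5' to 3' on the strand of the gene. Capitals mark the NRF1 word (GCGC, any base, TGCGC), the ETS word CCGGAAGT or the YY1 word AAGATGGCG, each searched on both strands. The stretch of Mrpl32 is chr13:14613038-14613127 on the minus strand, that of Mrpl12 is chr11:120484547-120484636 on the plus strand and that of Mrpl45 is chr11:97315626-97315715 on the plus strand, each with an NRF1 word. The stretch of Mrpl27 is chr11:94653701-94653790 on the plus strand, with an ETS word. For Mrpl36 it is chr13:73330919-73331008 on the plus strand, with the YY1 word read on the other strand as CGCCATCTT.
Mrpl32: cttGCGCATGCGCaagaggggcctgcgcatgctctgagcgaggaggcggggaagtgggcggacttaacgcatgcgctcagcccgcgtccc
Mrpl12: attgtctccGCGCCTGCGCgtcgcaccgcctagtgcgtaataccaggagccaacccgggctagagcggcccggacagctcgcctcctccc
Mrpl45: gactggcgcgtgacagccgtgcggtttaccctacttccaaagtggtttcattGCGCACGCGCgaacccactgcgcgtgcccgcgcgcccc
Mrpl27: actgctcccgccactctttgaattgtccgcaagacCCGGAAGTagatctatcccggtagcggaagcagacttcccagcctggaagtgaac
Mrpl36: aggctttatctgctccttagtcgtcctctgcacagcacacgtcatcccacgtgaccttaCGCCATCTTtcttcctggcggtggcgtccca

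The words were counted in RefSeq windows from 250 bases before to 50 bases after the start, of which 74 windows belonged to 68 of the genes and 9 genes had none. YY1's AAGATGGCG stood in 8 of the 74 windows (10.8%), against 3.67% of the windows of all tested genes and 1.4% of all windows. The ETS word CCGGAAGT stood in 12 windows (16.2%), against 9.62% for tested genes and 3.89% of all windows. The NRF1 word, GCGC and TGCGC around 1 free base, stood in 13 windows (17.6%), against 11.7% and 4.6%, and its palindromic form with A at the free base, which is among those 13, in 3 windows (4.05%), against 2.44% and 0.971%. Other, general words were near the share of tested genes. The E-box CACGTG stood in 9.46% of member windows against 10.7% for tested genes, CCAAT in 39.2% against 37.9%, and TATAAA in 6.76% against 6.54%. A match is a description of the letters and not a measured site.

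The genes also often shared their start region with a neighbour. For 18 of the 77 (23.4%) another protein-coding gene on the opposite strand started within 1000 bases and ran the other way with no overlap of the 2 genes, against 9.05% of all protein-coding genes in the table and 12% of tested ones, counted likewise. Pairs that overlap at their starts are left out of these counts, among them Mrps11 and Mrpl46, which overlap each other. Starts here are those of the GENCODE M21 annotation, which can differ from the RefSeq starts of the promoter stretches. The stretches shown above for Mrpl32 and Mrpl36 lie wholly inside their GENCODE genes (chr13:14608184-14613165 and chr13:73328513-73332178). By GENCODE starts, Mrpl32 starts 75 bases from Psma2, a proteasome subunit gene, and Mrpl49 starts 59 bases from Fau, which encodes a cytosolic ribosomal protein. Mrps12, which encodes a protein of the decoding centre, starts 172 bases from Sars2, the mitochondrial seryl-tRNA synthetase.

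Most of the genes were read at moderate and similar levels in every library. Over 6 libraries 74 of the 77 were deep enough to test, and these ran from 16 to 263 CPM with a median of 71.2 CPM. The median level of all 8460 tested genes was 42.4 CPM, and 62 of the 77 lay above it. Because each transcript yields a read near its 3' end, CPM counts transcripts roughly without regard to length. Per kilobase of the principal transcript, the median level was 41.6 CPM per kb for the 48 large subunit genes and 33.1 CPM per kb for the 29 small subunit genes, and in CPM it was 78.3 for large and 62 for small. The rank correlation of CPM with transcript length over the 77 genes was 0.006, and that of CPM with CPM per kb was 0.596, both across genes of the same libraries. Of the 10 genes highest in CPM, 7 were among the 10 highest in CPM per kb.

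Mrpl33, a small protein of the large subunit with a bacterial counterpart, had the highest level on both scales, 263 CPM or 549 CPM per kb. Its levels were 232, 366 and 289 CPM in male replicates 1 to 3, against 229, 228 and 232 CPM in female replicates 1 to 3. The female libraries lay within a few CPM of each other and all male ones lay above them, replicate 1 only just. Mrpl42, found only in mitochondria, came second with 178, 220 and 228 CPM in male and 180, 177 and 185 CPM in female libraries. Mrpl18, of the central protuberance, averaged 191 ± 14.3 CPM in male and 190 ± 14.2 CPM in female libraries (SD, n = 3 each), so that its groups overlapped fully. Mrpl30, with a bacterial counterpart, had 151, 237 and 199 CPM in male libraries, against 144, 160 and 165 CPM in female libraries. Mrpl36, whose YY1 word is shown above, followed with 148, 191 and 187 CPM in male and 160, 161 and 129 CPM in female libraries. The groups of Mrpl42, Mrpl30 and Mrpl36 overlapped through male replicate 1.

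Of the small subunit, Mrps15, which binds the 12S RNA, led with 151, 160 and 151 CPM in male and 167, 146 and 151 CPM in female libraries. Mrps14, of the head, had 135, 183 and 180 CPM in male and 125, 140 and 144 CPM in female libraries. Per kilobase it stood only at 50.4 CPM per kb, against 165 CPM per kb for Mrps15, because its transcript is longer. Mrps24 and Mrps17 followed at 113 and 111 CPM over the 6 libraries. At the low end of the tested genes stood Mrps33 with 16 CPM, Mrps36 with 23.2 CPM, Mrpl23 with 29 CPM and Mrpl55 with 30.2 CPM. In CPM per kb, too, Mrpl33 and Mrpl42 led, and the genes not tested were among the last. Together the 5 genes highest in CPM held 16.4% of all counts of the 77.

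**Figure D1:**
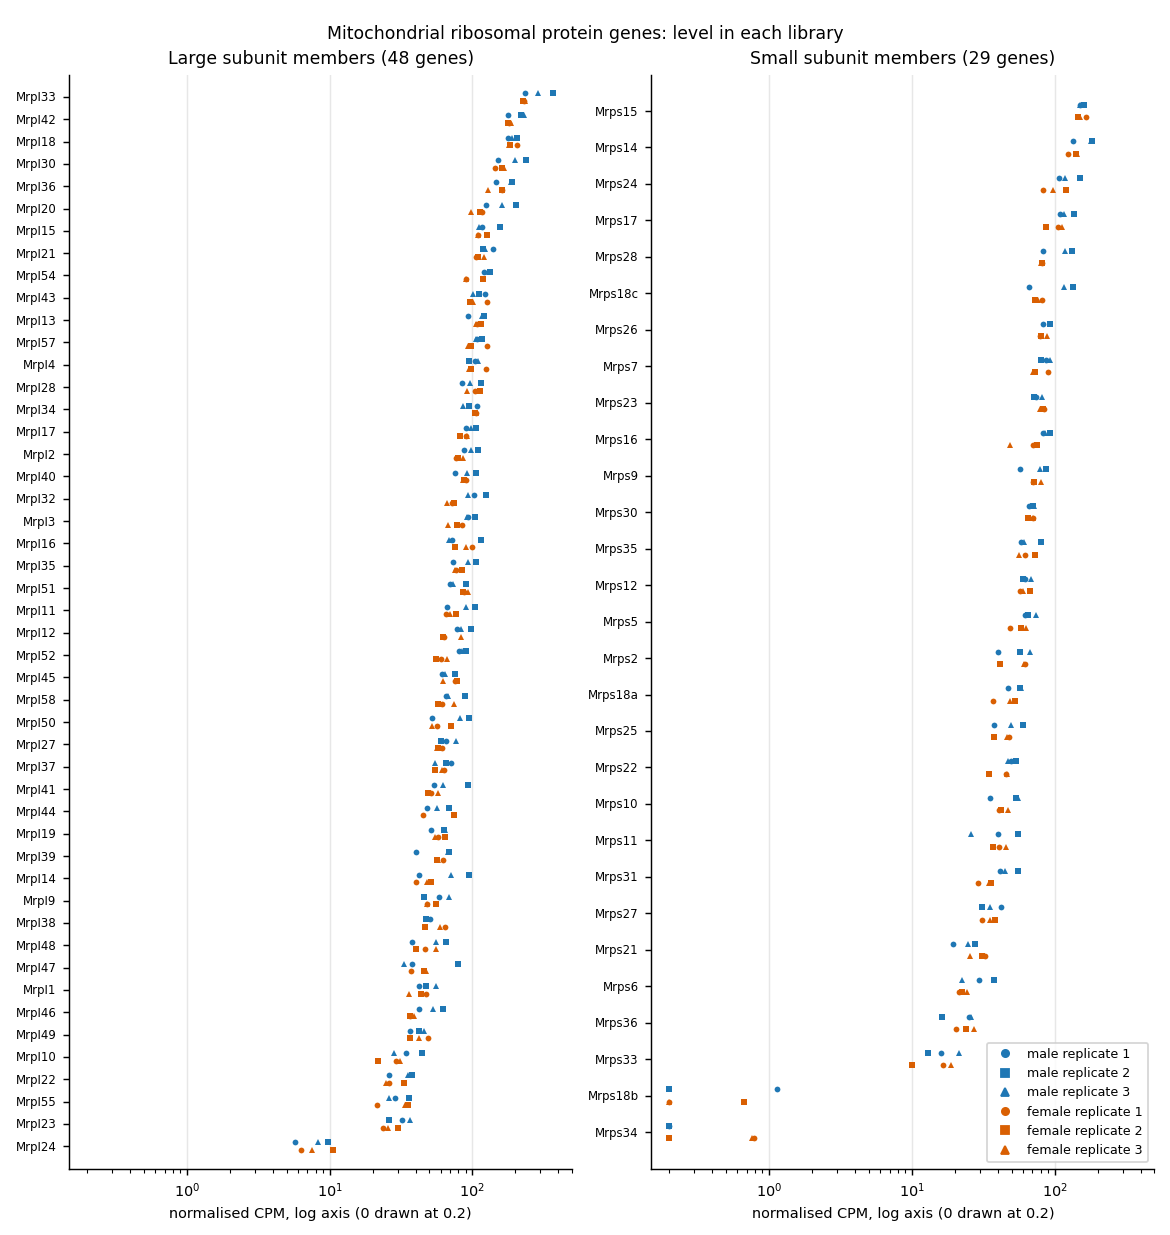
Normalised CPM (log axis, 0 drawn at 0.2) of the 48 large and 29 small subunit genes in each of the 3 male and 3 female libraries, ordered by mean level. Points of most genes lie close together between 16 and 263 CPM, and Mrpl24, Mrps18b and Mrps34 lie apart at the bottom.

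For want of reads 3 genes could not be tested, and their 3' ends share a feature. Mrpl24, a large subunit protein at the rim of the exit tunnel (chr3:87919506-87923672, plus strand, GRCm38), had 5, 6 and 7 counts in male and 8, 16 and 10 counts in female libraries. Mrps18b (chr17:35910379-35916389, minus strand), a small subunit protein related to bacterial S18, had 1, 0 and 0 counts in male and 0, 1 and 0 counts in female libraries. Mrps34 (chr17:24895116-24897502, plus strand), which is needed for a stable small subunit, had 0 counts in the male libraries and 1, 0 and 1 counts in the female libraries. In each of the 3, all of the last 300 exonic bases of the principal transcript lie in exons of a gene on the opposite strand, Rrnad1 for Mrpl24, Gm16279 for Mrps18b and Mapk8ip3 for Mrps34.

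That was so in full for 4 of the 77 genes, the fourth being Mrps25, whose end lies in exons of Nr2c2 and which nevertheless had 46.7 CPM. A further 5 had part of that window in another gene's exons, from 5.67% for Mrpl10 to 65.7% for Mrpl19, and Mrpl33 had 10.7% in an exon of Gm43809 on its own strand. The 68 genes with no such overlap ran from 16 to 195 CPM with a median of 73.6 CPM. Over all 14985 protein-coding genes of the table, any overlap was found for 9.49%, against 11.7% of the 77. Of the 519 protein-coding genes with full overlap 37.4% were tested, with a median of 3.33 CPM, against 55.1% of the 13563 genes with none, with a median of 13.6 CPM. The sources used here do not state how the counting treated reads in overlapping exons or whether it was stranded, so the levels of Mrpl24, Mrps18b and Mrps34 are uncertain and its part in them was not tested.

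**Figure D2:**
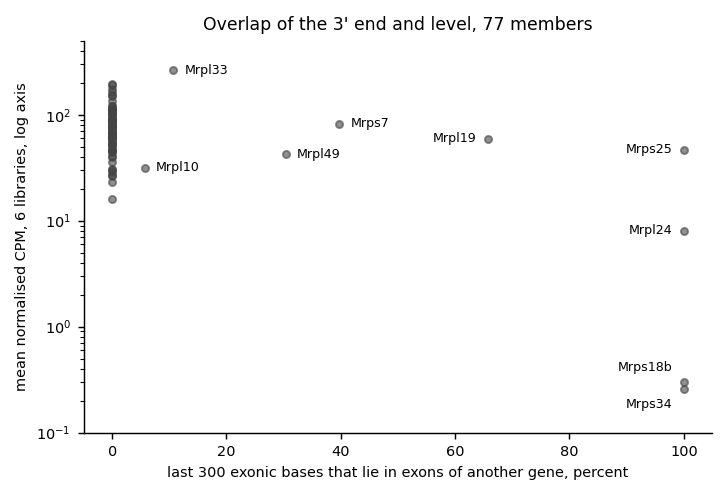
Mean normalised CPM (log axis) of each of the 77 genes against the percent of its last 300 exonic bases that lie in exons of another gene. At 100% stand Mrps25 at 46.7 CPM and the 3 genes with too few reads, whereas the 68 genes at 0% lie between 16 and 195 CPM.

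Between male and female libraries, none of the 74 tested genes passed the test across all genes (quasi-likelihood test of edgeR, Benjamini-Hochberg adjusted p under 0.05). Over all 8460 tested genes 49 passed (0.579%), of which 36 were higher in males (0.426%) and 13 lower in males (0.154%). The smallest adjusted p of the 74 genes was 0.0769. Before adjustment 13 of the 74 had a p under 0.05, all with higher levels in males, a share of 17.6% against 11.3% of all tested genes in either direction, 6.83% with higher and 4.5% with lower levels in males. With DESeq2 7 of the 74 had an unadjusted p under 0.05, all with higher levels in males. Over all 8460 tested genes 499 had one (5.9%), and 4.22% had one with higher levels in males. With limma-voom 11 of the 74 had one, again all higher in males. Over all 8460 genes 933 had one (11%), and 6.8% had one with higher levels in males. Neither tool called any of the 74 after adjustment.

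The direction was uneven, although each difference was small. The log2 fold change, male minus female, lay above 0 for 55 of the 74 (74.3%), against 49.3% of all tested genes, and with plain library-size scaling for 45 of the 74, against 35.6% of all tested genes. Its median was 0.17 over the 74 genes and 0.18 over the 47 large and 0.14 over the 27 small subunit genes, while the median of all tested genes was -0.0030. In 12 genes all male libraries lay above all female ones and in 0 all lay below, a share of 16.2% against 15.6% of all genes in either direction, and against 7.57% with all male libraries above and 8.03% with all below. Values ran from -0.33 to 0.57, and the 95% intervals of all 74 lay between -1 and 1, with a median reach of 0.33 to either side. The male values lean on replicates 2 and 3. Without male replicate 1 the median was 0.25 and 7 of the genes passed, all higher in males, while 337 of 8989 tested genes (3.75%) passed as higher in males in the same fit. Without male replicate 2 the median was 0.11 and none of the genes passed.

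**Figure D3:**
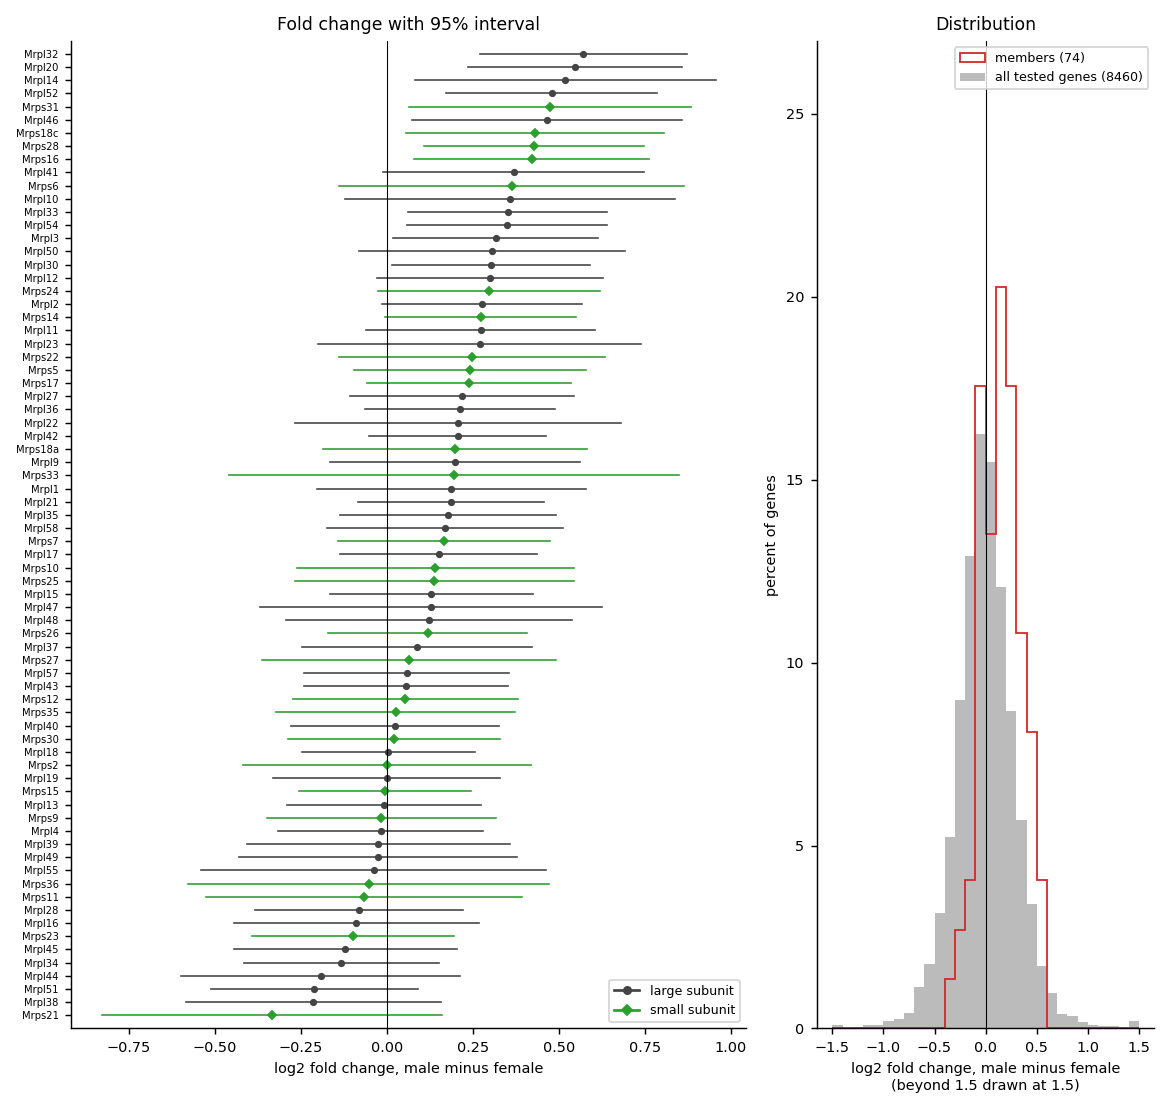
Left, log2 fold change, male minus female, with its 95% interval for each of the 74 tested genes, large subunit in black and small subunit in green. Right, the distribution over the 74 genes (red outline, median 0.17) and over all 8460 tested genes (grey, median -0.0030), with the red outline shifted to the right and no member beyond 0.57.

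The large subunit genes held the greatest differences. Mrpl32, a protein whose proteolytic maturation is needed for assembly of the mitochondrial ribosome and whose promoter stretch carries the palindromic NRF1 word, had 103, 124 and 93.5 CPM in male libraries, against 71.9, 74.5 and 66.5 CPM in female libraries. All male libraries lay above all female ones. The log2 fold change was 0.57 ± 0.14 (SE), with an adjusted p of 0.0769 in edgeR's quasi-likelihood test. Mrpl20, whose bacterial counterpart binds the ribosomal RNA early in assembly, had 125, 202 and 161 CPM in male libraries, against 118, 114 and 97.5 CPM in female libraries. Its groups did not overlap either, although male replicate 1 was close to the female libraries, and the log2 fold change was 0.55 ± 0.15 with an adjusted p of 0.123 in edgeR's quasi-likelihood test. Mrpl52, found only in mitochondria, had 80, 89.8 and 85.2 CPM in male and 60.1, 55.9 and 66.5 CPM in female libraries, with no overlap and a log2 fold change of 0.48 ± 0.15 (SE; adjusted p 0.195, edgeR's quasi-likelihood test). Mrpl14, which in human cells binds the assembly factor MALSU1, had 42.3, 94.7 and 71 CPM in male and 40.3, 51.2 and 48.4 CPM in female libraries. Male replicate 1 lay inside the female range, and the log2 fold change was 0.52 ± 0.21 (SE; adjusted p 0.333, edgeR's quasi-likelihood test). Mrpl33, Mrpl46, Mrpl54, Mrpl3 and Mrpl30 had unadjusted p-values under 0.05 as well, with log2 fold changes of 0.35, 0.47, 0.35, 0.32 and 0.30.

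By position in the large subunit, medians ran from 0.07 to 0.29, and the difference between positions was not tested. The 4 listed genes of the stalks all had log2 fold changes above 0 with a median of 0.29. Among them Mrpl12 had 77.8, 98 and 82.8 CPM in male and 63.2, 61.8 and 83.1 CPM in female libraries, with overlap through female replicate 3. For the 8 tested genes at the rim of the exit tunnel the median was 0.14. Mrpl45, which anchors the ribosome at the inner membrane where the new chain leaves the tunnel, had 61.7, 75.1 and 63.9 CPM in male and 75.1, 77.8 and 62.7 CPM in female libraries, a log2 fold change of -0.12 with overlapping groups. Over the 8 genes of the central protuberance the median was 0.07, and it turned to -0.020 with library-size scaling. The median of all tested genes moved from -0.0030 to -0.092 with the same change of scaling. That group holds Mrpl52 and Mrpl46, given above, at the high end, and Mrpl38 at the low end. Mrpl38 and Mrpl51 had log2 fold changes of -0.21 each, and Mrpl44, a protein with a ribonuclease III fold, had -0.19, all with overlapping groups. Mrpl58, a peptidyl-tRNA hydrolase built into the large subunit, had 0.17.

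In the small subunit the values were spread over a similar range. The 8 tested genes of the head had a median log2 fold change of 0.18, and the 9 tested genes of the body, decoding centre and platform had 0.24. Mrps28 had 83.5, 132 and 118 CPM in male libraries, against 82.2, 81.8 and 80.8 CPM in female libraries. All male libraries lay above the tightly grouped female ones, replicate 1 by little, and the log2 fold change was 0.43 ± 0.15 (SE; adjusted p 0.263, edgeR's quasi-likelihood test). Mrps31, of the head, and Mrps16, with a bacterial counterpart, had log2 fold changes of 0.47 and 0.42, also with no overlap. The decoding-centre gene Mrps12 differed little, with 61.7, 60.4 and 68.6 CPM in male and 56.9, 67.2 and 59.7 CPM in female libraries. Mrps21 had the lowest fold change of the 74, -0.33 ± 0.24 (SE), with 19.4, 27.8 and 24.8 CPM in male and 32.4, 31.3 and 25.7 CPM in female libraries. Male replicate 2 lay inside the female range, with an adjusted p of 0.649 in edgeR's quasi-likelihood test.

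Mouse has 3 genes related to bacterial S18, and they were read at unlike levels. Mrps18c, of the small subunit, had 66.3, 134 and 117 CPM in male libraries, against 81.4, 73.1 and 76.3 CPM in female libraries. Male replicate 1 was the lowest of all 6 and the other male libraries were the highest, so that the log2 fold change of 0.43 ± 0.18 (SE) did not pass (adjusted p 0.351, edgeR's quasi-likelihood test). Its coefficient of variation over the 6 libraries, 30.0%, was the largest among the genes above the median level. Mrps18a, whose protein sits in the large subunit in structures of the ribosome despite its symbol, had 46.9, 57.1 and 58 CPM in male and 37.2, 53.2 and 49.1 CPM in female libraries. Mrps18b had 2 counts in all.

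Mrps30 and Mrps36 stand for proteins that are placed elsewhere today. Mrps30 is part of the large subunit in structures, and it averaged 69.6 ± 2.97 CPM in male and 68.6 ± 2.97 CPM in female libraries (SD, n = 3 each). Its coefficient of variation, 3.92%, was the smallest of the 74 genes. It lay below the 12.2% from counting alone, so it does not show that Mrps30 is steadier than other genes. Mrps36 is known as a subunit of the oxoglutarate dehydrogenase complex, and it averaged 22.5 ± 5.37 CPM in male and 23.9 ± 3.32 CPM in female libraries (SD, n = 3 each). With Mrps18a and Mrps30 counted with the large subunit and Mrps36 left out, the median log2 fold changes were 0.18 over 49 large and 0.15 over 24 small subunit genes. By origin, the 45 tested genes with a bacterial counterpart had a median of 0.20, with 34 above 0, and the 28 found only in mitochondria had 0.10, with 21 above 0. Their levels had medians of 83.5 CPM for the 46 in the table with a counterpart and 61.5 CPM for the 30 without. The difference between these classes was not tested.

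Single libraries set much of this pattern. Male replicate 2 was the highest of all 6 libraries in 42 of the 74 genes (56.8%), against 26.1% of all tested genes. Male replicate 1 was the lowest of the male libraries in 48 (64.9%), against 33.5% of all tested genes. It lay above all female libraries in 21 genes (28.4%), close to the 27.9% of all tested genes, whereas male replicate 2 did so in 48 (64.9% against 34.1%) and male replicate 3 in 43 (58.1% against 30.5%). Male replicate 2 also had the fewest counts, 679724, and the highest shares of cytosolic ribosomal protein RNA and of mitochondrial ribosomal RNA. The part of these in the levels of the 74 genes was not tested. Over all 6 libraries the observed coefficient of variation had a median of 15.6%, against 12% from counting alone, and it exceeded the counting value in 52 of the 74 genes.

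The 77 genes together took under 1% of the RNA, and how steady that part was depended on the denominator. Their summed share of all counts was 0.584%, 0.637% and 0.610% in male replicates 1 to 3, against 0.593%, 0.571% and 0.574% in female replicates 1 to 3. Male replicate 1 lay inside the female range and the other male libraries lay above it. The means were 0.610% ± 0.0267 in male and 0.579% ± 0.0121 in female libraries (SD, n = 3 each), a difference of 0.0311 percentage points with a two-sided exact permutation p of 0.2. The smallest p that 3 against 3 libraries allow is 0.1. As a share of TMM-scaled library sizes the values were 0.559%, 0.707% and 0.635% in male libraries, against 0.563%, 0.560% and 0.558% in female libraries (two-sided exact permutation p = 0.3). Outside mtDNA-encoded and cytosolic ribosomal protein genes the share was 0.712%, 0.853% and 0.783% in male libraries, against 0.712%, 0.706% and 0.700% in female libraries (two-sided exact permutation p = 0.2). On both of these scales the female libraries were almost equal, male replicate 1 was near them and male replicates 2 and 3 lay above.

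Large and small subunit genes kept a similar proportion in every library. The large subunit share was 0.405%, 0.447% and 0.419% in male and 0.413%, 0.397% and 0.395% in female libraries (two-sided exact permutation p = 0.2), and the small subunit share was 0.179%, 0.191% and 0.191% in male and 0.180%, 0.174% and 0.179% in female libraries (p = 0.3 by the same exact test). The ratio of large to small subunit counts was 2.27, 2.34 and 2.19 in male and 2.30, 2.29 and 2.204 in female libraries. It averaged 2.27 ± 0.0737 in male and 2.26 ± 0.0523 in female libraries (SD, n = 3 each; two-sided exact permutation p = 1.0), and its difference of 0.0039 changed sign under other subunit assignments and without single libraries. In bulk RNA, fewer cells of a type and less RNA per cell cannot be told apart.

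**Figure D4:**
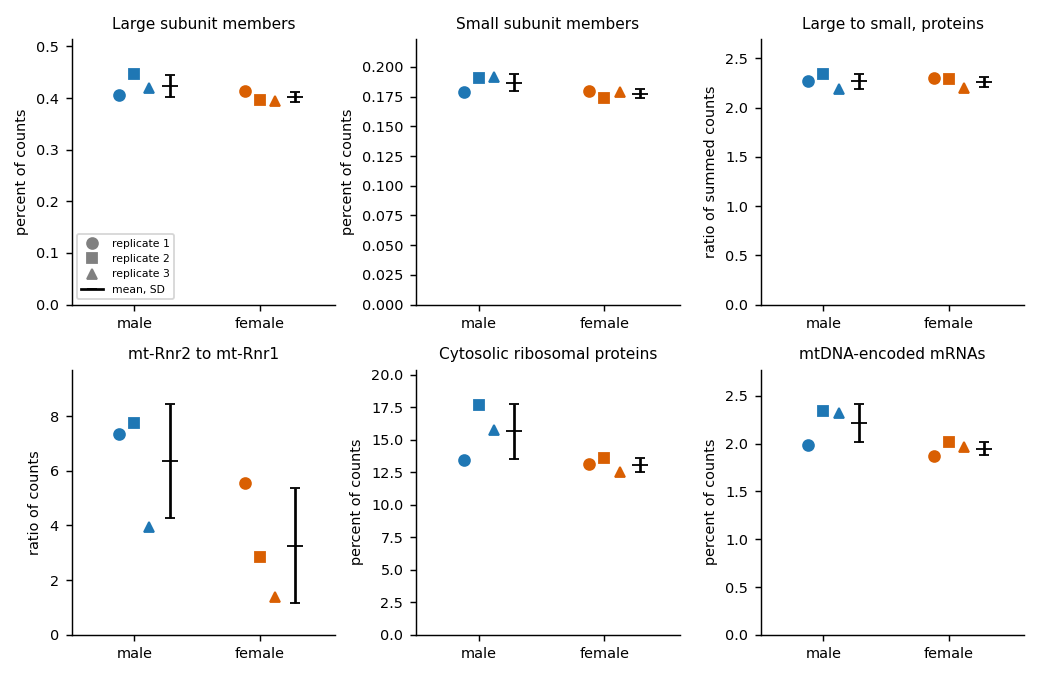
Percent of counts in large and in small subunit genes, the ratio of both, the ratio of mt-Rnr2 to mt-Rnr1 counts, and the percent of counts in cytosolic ribosomal proteins and in mtDNA-encoded messages, for each male and female library with mean and SD. The ratio of large to small subunit proteins stays between 2.19 and 2.34 in all 6 libraries, whereas the ratio of their RNAs runs from 1.40 to 7.74.

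The ribosomal RNAs of the same subunits did not keep such a ratio. The large subunit RNA mt-Rnr2 had 21709, 51757 and 32798 CPM in male and 13766, 26277 and 19834 CPM in female libraries, a log2 fold change of 0.83 ± 0.24 (SE; adjusted p 0.142, edgeR's quasi-likelihood test). The small subunit RNA mt-Rnr1 had 2950, 6686 and 8309 CPM in male and 2480, 9239 and 14174 CPM in female libraries, a log2 fold change of -0.53 ± 0.36 (SE; adjusted p 0.628 by the same test). With no filter on low counts, the spread was estimated over 21606 genes in place of 8460. Both RNAs then passed by the same test, mt-Rnr2 with 0.79 (adjusted p 1.85e-08) and mt-Rnr1 with -0.57 (adjusted p 0.0011). With the filter, mt-Rnr2 also passed without male replicate 1 (1.08, adjusted p 8.59e-05). Without female replicate 3, mt-Rnr1 had 0.029. For both the groups overlapped, and levels differed widely between libraries of one sex. Their ratio was 7.36, 7.74 and 3.95 in male and 5.55, 2.84 and 1.40 in female libraries (two-sided exact permutation p = 0.2). These RNAs carry only short adenine tails, and how well oligo-dT priming captured them was not tested.

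Among the messages that this ribosome translates, mt-Co1, which encodes a core subunit of cytochrome c oxidase, was the 1 gene of 10 tested that passed. It had 804, 1353 and 1084 CPM in male libraries, against 596, 663 and 768 CPM in female libraries, with all male libraries above all female ones. Its log2 fold change was 0.67 ± 0.15 (SE; adjusted p 0.0396, edgeR's quasi-likelihood test). The call was lost with limma-voom (adjusted p 0.052) and on leaving out male replicate 2 (adjusted p 0.197), male replicate 3 (0.227), female replicate 1 (0.218), female replicate 2 (0.188) or female replicate 3 (0.0859). All 10 had log2 fold changes above 0, with a median of 0.37, except that mt-Nd6 lay below 0 with upper-quartile and library-size scaling. The mtDNA-encoded messages took 1.99%, 2.34% and 2.32% of counts in male and 1.87%, 2.01% and 1.96% in female libraries.

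Other nuclear genes of mitochondrial translation showed no direction common to all lists. With library-size scaling, given for some lists below, the median of all tested genes was -0.092. The 5 ribosomal proteins with other symbols (Dap3, Ptcd3, Aurkaip1, Chchd1 and Gadd45gip1) all had log2 fold changes above 0, with a median of 0.14, and none passed, but Gadd45gip1 and Ptcd3 lay below 0 with library-size scaling. Without male replicate 1, Aurkaip1 (0.54, adjusted p 0.00924) and Chchd1 (0.45, adjusted p 0.0475) passed by edgeR's quasi-likelihood test. Chchd1, a small subunit protein, had 122, 216 and 172 CPM in male and 133, 152 and 135 CPM in female libraries, with male replicate 1 the lowest of all 6. Aurkaip1, also of the small subunit, had 128, 181 and 179 CPM in male and 130, 122 and 119 CPM in female libraries, with male replicate 1 inside the female range. Of 24 tested assembly factors 12 lay above 0 and none passed, with a median of 0.0094 (-0.0077 with upper-quartile and -0.08 with library-size scaling), where Rbfa, which matures the 12S RNA, had -0.08 and the RNA granule protein Grsf1 had -0.04. Of 17 tested translation and insertion factors 8 lay above 0 and none passed, with a median of -0.04, where the inner membrane proteins Letm1 and Oxa1l had -0.21 and -0.04. For 18 tested mitochondrial aminoacyl-tRNA synthetases the median was 0.08 (-0.0060 with library-size scaling), with 11 above 0 and none past the threshold, and Lars2 had 0.21 and Tars2 -0.16. For 14 tested genes of mtDNA upkeep and transcription it was -0.0034, with 7 above 0 and none past the threshold, where the single-strand binding protein Ssbp1 had 0.06 and the packaging factor Tfam had 0.34. The 10 tested regulators had a median of -0.09, with 3 above 0 and none past the threshold, where Yy1 had 0.02 and Myc 0.11.

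The proteins of the cytosolic ribosome showed a similar order of libraries with greater values. All 76 tested genes had log2 fold changes above 0 under each of the 4 scalings, with a median of 0.38, and none passed. The smallest adjusted p was 0.0733 in edgeR's quasi-likelihood test. Before adjustment 55 of the 76 (72.4%) had a p under 0.05 by that test, all higher in males, against 6.83% of all tested genes. The median was 0.51 without male replicate 1 and 0.23 without male replicate 2. Their share of counts was 13.5%, 17.6% and 15.8% in male and 13.1%, 13.6% and 12.5% in female libraries, again highest in male replicate 2 and, among male libraries, lowest in replicate 1.

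**Figure D5:**
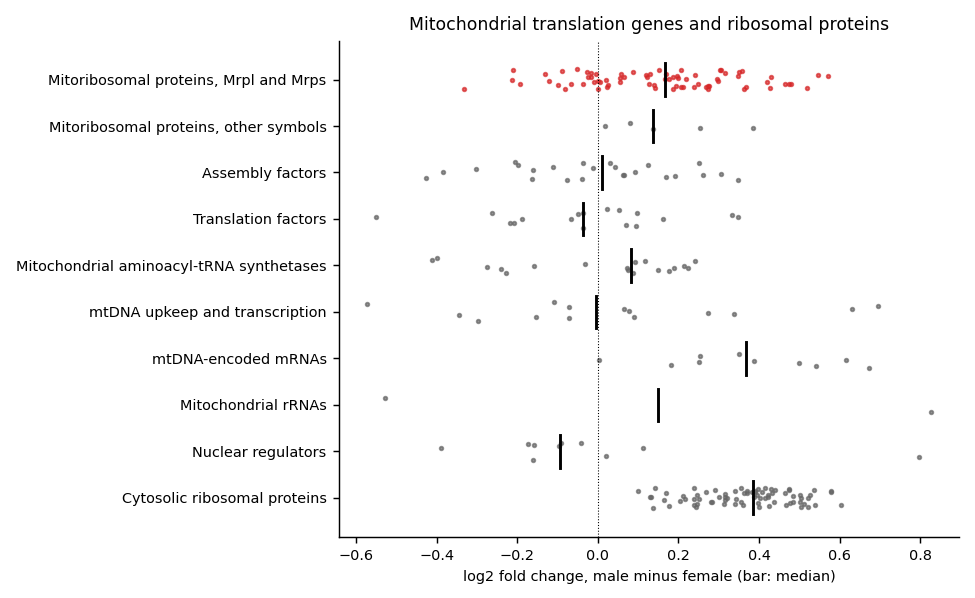
Log2 fold change, male minus female, of each tested gene (points) and its median (bar) for the mitochondrial ribosomal proteins and for other gene lists. The medians stand at 0.17 for the mitochondrial ribosomal proteins, near 0 for assembly and translation factors, at 0.37 for mtDNA-encoded messages and at 0.38 for cytosolic ribosomal proteins.

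Some markers of other cells and some immediate-early and heat-shock genes also differed between the sexes. By edgeR's quasi-likelihood test, 2 of 3 tested erythroid, 1 of 1 megakaryocyte, 1 of 4 mast and basophil and 11 of 13 immediate-early and heat-shock genes were higher in males. Of 8 tested B and plasma cell genes 1 was higher and 1 lower in males. Over all 8460 tested genes, 36 (0.426%) passed as higher and 13 (0.154%) as lower in males. None passed among 8 progenitor and myeloid, 1 T and natural killer, 1 late neutrophil, 4 stromal and 5 lung epithelial genes. Summed levels of 10 erythroid markers were 232 to 374 CPM in male and 98.4 to 118 CPM in female libraries, and those of 5 megakaryocyte markers 38.9 to 109 CPM in male and 21.9 to 30.8 CPM in female libraries. For 11 B and plasma cell markers they were 6285 to 7329 CPM in male and 7998 to 9243 CPM in female libraries, and for 6 mast and basophil markers 145 to 205 CPM in male and 90.1 to 112 CPM in female libraries. The 7 late neutrophil markers lay at 14.2 to 26.1 CPM in male and 21.3 to 22.9 CPM in female libraries, 6 stromal markers at 210 to 322 CPM in male and 173 to 222 CPM in female libraries, and 5 T and natural killer cell markers at 150 to 167 CPM in male and 126 to 146 CPM in female libraries. The 13 immediate-early and heat-shock genes summed to 3807 to 5366 CPM in male and 2852 to 3169 CPM in female libraries. A list of 5 lung epithelial genes, a tissue whose samples are named in the barcode list deposited with the counts, had 222 to 444 CPM in male and 140 to 198 CPM in female libraries. No gene of these lists that is in the table was at 0 in all libraries. Their part in the levels of the mitochondrial ribosomal protein genes was not tested.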

How the data were processed

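RNA counts of 6 libraries were used, 3 male and 3 female. Their sex and replicate number came from the titles. BRB-seq libraries were made, per the labels' protocols, from total RNA with barcoded oligo-dT primers, and read 1 carried a molecular identifier. The authors deposited a table of raw, unnormalised counts per gene (per the file headers). Per the submitters' processing notes, featureCounts 2.0.1, HISAT2 2.2.1, Trim Galore 0.6.7, DESeq2 and UMI-tools were named with the builds GRCm38 and GRCh38, in no stated role or order. Collapsing of molecular identifiers and use of strand are not given in the sources used here. PCR copies may therefore be counted, and neighbouring genes may share reads.

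Filtering by filterByExpr, with groups by sex, a minimum count of 10 and a minimum total of 15, kept 8460 genes and dropped 13146. After TMM scaling, the male minus female difference was tested in edgeR 4.0.16 under R 4.3.3 (quasi-likelihood F test, no covariate) with Benjamini-Hochberg adjustment at 0.05 over all 8460. The variation among libraries beyond counting, possibly technical, had a common coefficient of 0.102. The SE was taken as log2 fold change over root F. Shares and ratios were compared by two-sided exact permutation tests (scipy 1.17.1). The fit was tested on data simulated with the common dispersion of these libraries. It recovered 12 of 67 genes (17.9%) changed by a log2 fold of 0.5. Of genes changed by 1 it recovered 61 of 67, and of those changed by 2 it recovered 62 of 66. There were 2 false calls. Changes of 0.5 were thus mostly missed in the simulation. The alternatives comprised scaling by RLE, upper quartile or library size, no filter, a stricter filter (10 counts in each library of males or of females), limma-voom (limma 3.58.1), DESeq2 1.42.0, the replicate number as a block, each library left out, other denominators, and subunits by structure. Leaving out genes with overlapping 3' ends was added after seeing the data.

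Positions, transcript lengths and 3' overlaps came from GENCODE M21 (GRCm38), in which all 77 symbols and chromosomes were the same as in the table. Length is that of the principal coding transcript, the longest where several are principal. The members and lists were chosen with earlier results of these data known. Named were the 4 highest and 2 lowest tested genes of each subunit by level, the 4 greatest fold changes in each direction, the Mrps18 genes, Mrps30, Mrps36, Mrpl12, Mrpl45, Mrps12, the smallest and largest coefficient of variation among the genes above the median level, the genes not tested, both ribosomal RNAs, and from each other list the genes past the threshold or the 2 of highest level. Mrpl3, Mrpl27, Mrpl36, Mrpl46, Mrpl54, Mrpl58, Mrps16, Mrps25, Mrps28, Mrps31, genes shown for an overlapping end or a shared start, and Xist were named after their values were seen. Mrpl53 was not analysed here.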

Additional observations from a re-analysis of the deposited data

Results flagged for a closer look

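Mrpl23-ps1, a pseudogene copy of Mrpl23 that is no protein-coding gene and so outside the 77, had 293 counts over the 6 libraries, a signal in data that no comparison used. It had 40, 28 and 43 counts in male libraries, against 51, 66 and 65 counts in female libraries, or 45.7, 45.7 and 50.9 CPM in male and 40.3, 43.9 and 49.1 CPM in female libraries. Its parent Mrpl23 had 28, 16 and 31 counts in male and 30, 45 and 34 counts in female libraries, fewer than the pseudogene in every library. Reads of near-identical copies can be assigned to either, so the level of Mrpl23 is uncertain.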

How the results depend on the processing

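The count of member genes called stayed at 0 under each alternative except without male replicate 1, where 7 passed by edgeR's quasi-likelihood test (Mrpl20, Mrps18c, Mrpl14, Mrps28, Mrpl33, Mrpl32 and Mrpl30, log2 fold changes 0.71, 0.70, 0.80, 0.61, 0.50, 0.59 and 0.47, adjusted p 0.00156, 0.00365, 0.00919, 0.0104, 0.0145, 0.0271 and 0.0327), so that leaving out 1 library gave 0 to 7. The member median, 0.17, ran from 0.11 to 0.25 on leaving out 1 library, with 0.10 to 0.25 for large and 0.11 to 0.25 for small subunit genes. Library-size scaling shifted the median of all genes to -0.09 and that of the members to 0.08, and the distance between both medians was 0.17 with either scaling. Over all genes, 36 were higher and 13 lower in males. With no filter there were 81 and 35, lower genes were 23 with library-size scaling, 7 with DESeq2 and 8 with limma-voom, and leaving out 1 library gave 19 to 337 higher and 4 to 78 lower, the most without male replicate 1.

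Whether replicate numbers pair the samples is not settled. Correlations of deviations between same-numbered libraries were small, 0.026, 0.029 and 0.044, but each library correlated best with its own number. Between libraries of different number the highest was 0.0013. With the replicate number as a block, 56 genes were higher and 22 lower in males, 0 members passed, 15 of 74 members had an unadjusted p under 0.05 against 12.1% of all genes, all 15 higher in males against 7.26%, and mt-Rnr2 passed (0.79, adjusted p 0.0107, edgeR's quasi-likelihood test).

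The ratio of large to small subunit counts, higher in males by 0.0039, turned to -0.0136 with subunits by structure and to -0.0113 for members with no overlapped 3' end, and ran from -0.0323 to 0.0414 on leaving out 1 library. The difference in member share ran from 0.0177 to 0.0444 percentage points, in large subunit share from 0.0104 to 0.0309, in small subunit share from 0.00716 to 0.0134 and in the ratio of ribosomal RNAs from 2.15 to 4.29. The denominator moved these differences by more. They were 0.0762 for members, 0.0532 for large and 0.0230 for small subunit genes outside mtDNA-encoded and cytosolic ribosomal protein genes, and 0.0739, 0.0516 and 0.0223 on TMM-scaled sizes, with exact permutation p-values of 0.2 or 0.3.

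Several log2 fold changes, most of them near 0, changed sign. Mrpl18 (0.0045) had -0.014 with upper-quartile scaling, -0.091 with library-size scaling, -0.027 with no filter and -0.045 to 0.067 on leaving out 1 library. Mrps30 (0.02) had -0.070 with library-size scaling, -0.011 with no filter and -0.015 to 0.060. Yy1 (0.02) had -0.067, -0.012 and -0.070 to 0.11 in the same order. Mrps12 (0.05) had -0.035 and Ssbp1 (0.06) -0.025 with library-size scaling, and -0.0062 to 0.13 and -0.021 to 0.20 on leaving out 1 library. Mrps15 (-0.0050) had 0.0021 with the stricter filter and -0.045 to 0.052, and Mrpl55 (-0.04) had 0.0025 with the block and -0.22 to 0.10. On leaving out 1 library Grsf1 ran from -0.22 to 0.056, Mrps33 from -0.051 to 0.39, Mrps36 from -0.16 to 0.10 and Oxa1l from -0.21 to 0.077. Mrps33 (0.20) and mt-Rnr1 (-0.53) were not near 0, and mt-Rnr1 ran from -0.97 to 0.03, with the sign turned without female replicate 3. With library-size scaling the median of all tested genes moved as well, from -0.0030 to -0.092, and with no filter it was -0.056. Beyond such shifts of all genes, the cause of these changes was not tested. Depth limits genes such as Mrps33, with 8 to 25 counts a library. Where a setting left out a library, the spread was still estimated across all genes.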
